A study of Sus scrofa with 5 samples.

Results

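The miR-23, miR-24 and miR-27 microRNAs are made from 2 related gene clusters, and their counts were examined in exosomes from 5 pig body fluids. Names were taken by rule from each fluid's list: miR-23a, miR-23b, miR-24, miR-24-1, miR-24-2, miR-27a or miR-27b, with any arm suffix. Of 411 listed names 8 matched. Counts above 0 were listed for 6 of them, ssc-miR-23a, ssc-miR-27a, ssc-miR-24-1-5p, ssc-miR-24-3p, ssc-miR-23b and ssc-miR-27b-3p (the prefix is left out below). The other names, miR-27b-5p and miR-24-2-5p, were listed at 0 in every fluid. Exosomes are small vesicles that cells release. They had been isolated with a commercial reagent from bile, urine, semen and the blood fluids serum and plasma, all of Rongchang pigs at day 180 after birth, with 1 small RNA library for each fluid. The labels give no treatment or genotype, and say nothing of how many animals stand behind each library.

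A microRNA (miRNA) is cut from a hairpin precursor and guides silencing of messenger RNAs that pair with its 5′ end, the seed. The miR-23, miR-27 and miR-24 hairpins sit side by side and are transcribed together from each cluster. The clusters arose by duplication, so miR-23a and miR-23b are near-identical, as are miR-27a and miR-27b-3p, and the mature miR-24-3p is the same from either cluster. Members are known from endothelial cells and blood vessel growth, from lymphocyte differentiation and, for miR-27, from the control of fat and lipid metabolism. In the pig gene table of Sscrofa11.1, which is not the build named for these files, MIR23A, MIR27A and MIR24-1 are neighbours with no gene between them, and ZSWIM4 follows. MIR24-2, MIR27B and MIR23B are likewise neighbours and lie inside C10H9orf3. By that table the miR-24-1 hairpin belongs with miR-23a and miR-27a. Below, miR-23a and miR-27a together are the a pair, and miR-23b and miR-27b-3p the b pair.

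Urine had the fewest miRNA counts, 26522, followed by serum (473168), plasma (1153755), bile (1673239) and semen (2284926). Urine was not low in total reads, which the authors' normalized values put at 10796775 for urine and 7207788 for plasma. Of such totals, miRNA counts made up 0.246% in urine and 4.47% in serum. They made up 15.9% in bile, 16.0% in plasma and 21.2% in semen. Each listed count was 0 or at least 10, so a listed 0 stands for up to 9 reads. Levels are in CPM, a library's miRNA counts scaled to a sum of 1000000. They are relative: less of a miRNA and more of the others cannot be told apart, and they do not measure the number of vesicles. Intervals are exact 95% intervals and cover counting error alone, as if reads were independent. PCR reads without molecular identifiers are not independent molecules, so the intervals can be too narrow. There was 1 library per fluid, so differences carry neither a replicate check nor a p-value. The fluids' labels were set against known miRNAs: the hepatocyte miRNA miR-122 had its highest level in bile (54673 CPM), the kidney epithelium miRNA miR-204 in urine (4713 CPM), and the germ cell miRNAs miR-34c and miR-202-5p were listed above 0 in semen alone (604 and 11 counts). At 4.81 CPM in semen, miR-202-5p lay below the level of 10 counts in every other library (5.98 to 377 CPM), so it cannot check the labels. miR-34c, at 264 CPM, lay below that level in urine. The red cell miRNA miR-451 stood at 84805 CPM in serum and 4139 CPM in plasma.

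Together the members took 4.54% of the miRNA counts in serum (4.48 to 4.60), followed by 1.89% in urine (1.73 to 2.06) and by 1.52% in bile (1.505 to 1.54). Plasma and semen held less, 0.512% (0.499 to 0.525) and 0.348% (0.340 to 0.356). Serum thus stood 2.40 times above urine, the next fluid (2.20 to 2.63). This order of fluids depended on how libraries were scaled. With the library sizes of edgeR's TMM method or DESeq2's size factors, plasma was highest, at 1.11 and 1.15 times serum. On the authors' RPM, counts scaled to a larger library total, bile was highest, at 1.19 times serum. Ratios between members inside a library, given further on, do not move with the scaling.

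Of the a pair, miR-23a was the more concentrated in serum. It had 5892 counts in serum, 471 in plasma, 555 in bile, 385 in semen and 12 in urine. These are 12452, 408, 332, 168 and 452 CPM in the same order. Serum was far above the other fluids, 27.5 times urine (15.7 to 53.3), and the urine and plasma levels did not differ beyond counting error (ratio 1.11, 0.569 to 1.95). Plasma was 1.23 times bile (1.09 to 1.39), and bile 1.97 times semen (1.73 to 2.25). miR-23a was the 20th most abundant miRNA of serum and ranked between 48 and 80 in the other fluids. Its highest level was in serum under each of the 5 scalings tried, but the lead over plasma, then the next fluid, was 3.09 times under TMM and 2.99 times under DESeq2 size factors.

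miR-27a, its neighbour in the cluster, was spread more evenly. Its counts were 2097 in serum, 783 in plasma, 2592 in bile, 821 in semen and 21 in urine, or 4432, 679, 1549, 359 and 792 CPM. Serum was 2.86 times bile (2.70 to 3.03), bile 1.96 times urine (1.28 to 3.17), and urine and plasma did not differ beyond counting error (1.17, 0.718 to 1.80). Semen was lowest, with plasma 1.89 times above it (1.71 to 2.09). The first place of serum was not kept under every scaling: plasma was 1.51 (TMM) or 1.56 times serum (DESeq2 size factors), and bile 1.24 times serum on the authors' RPM.

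miR-24-3p, which both clusters produce, was the most abundant member in serum. Counts were 8203 in serum, 2141 in plasma, 2538 in bile, 1264 in semen and 49 in urine, or 17336, 1856, 1517, 553 and 1848 CPM. Serum was 9.34 times plasma (8.91 to 9.80). Plasma and urine did not differ beyond counting error (1.004, 0.757 to 1.36), nor did urine and bile (1.22, 0.899 to 1.62), and semen was lowest, 2.74 times below bile (2.56 to 2.94). With TMM and DESeq2 size factors plasma came level with or just above serum, at 1.06 and 1.09 times.

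The opposite arm of the hairpin, miR-24-1-5p, was scarce. It had 115 counts in serum (243 CPM) and 10 in semen (4.38 CPM), and was listed at 0 in plasma, urine and bile. Serum was 55.5 times semen (29.1 to 119) and at least 28.0 times plasma (14.7 at the lower end), where a listed 0 was taken as 10 counts. In urine 10 counts correspond to 377 CPM, above the serum level, so serum and urine cannot be ordered. Counts of miR-24-3p come from both clusters, so shares of the arms are not those of a single hairpin. Set against miR-24-3p, the 5p arm made up 1.38% of the counts of both arms in serum (1.14 to 1.66) and 0.785% in semen (0.377 to 1.44). It was at most 0.419% in plasma and 0.353% in bile, taking a listed 0 as 9 reads, both under the lower end of the serum interval. In urine the same bound was 15.5%, too high to compare.

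Of the b cluster, miR-23b had 807 counts in serum, 17 in plasma, 540 in bile, 1018 in semen and 106 in urine. Its levels were 1706, 14.7, 323, 446 and 3997 CPM. Urine was highest, 2.34 times serum (1.90 to 2.87), followed by semen, 3.83 times below serum (3.49 to 4.203), and bile, 1.38 times below semen (1.24 to 1.54). Plasma stood apart at the bottom, 21.9 times below bile (13.6 to 37.9), and was the lowest fluid for miR-23b under each of the 5 scalings. The first place of urine did not hold on the authors' RPM, where semen was highest.

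miR-27b-3p was the most abundant member in plasma, semen, urine and bile. The libraries listed 4367 counts in serum, 2493 in plasma, 19261 in bile, 4450 in semen and 313 in urine, or 9229, 2161, 11511, 1948 and 11802 CPM. Urine and bile did not differ beyond counting error (1.03, 0.914 to 1.15). Bile was 1.25 times serum (1.21 to 1.29), serum 4.27 times plasma (4.07 to 4.49), and plasma 1.11 times semen (1.06 to 1.17). It ranked 14th in bile and 15th in urine, against 23rd in serum, 18th in plasma and 25th in semen. The highest fluid changed with the scaling, to bile with TMM, on the authors' RPM and with totals that leave out the most abundant miRNA, and to plasma with DESeq2 size factors.

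**Figure D1:**
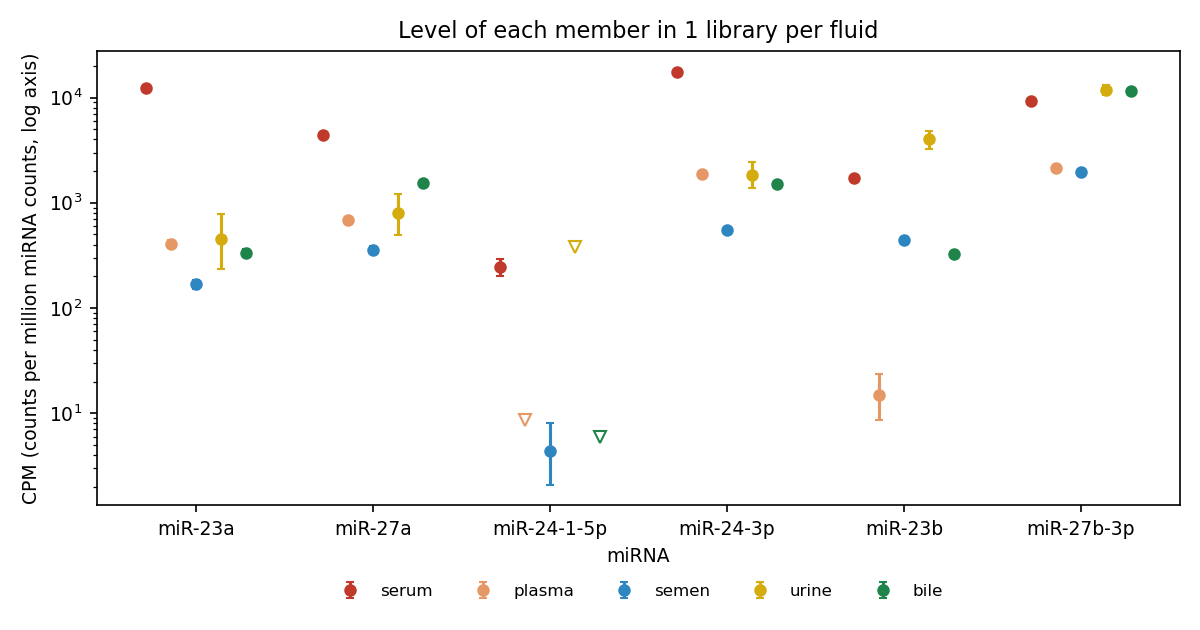
Level of each member (CPM, log axis) in the single library of each fluid, with exact 95% counting intervals; open triangles mark the level of 10 counts where miR-24-1-5p was listed at 0. The serum point of miR-23a, at 12452 CPM, stands clear of the other fluids, whereas miR-27b-3p has serum, urine and bile close together (9229 to 11802 CPM) and miR-23b drops to 14.7 CPM in plasma.

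Read as a group, 3 of 6 members had their highest CPM in serum (miR-23a, miR-27a and miR-24-3p), against 28.3% of the 166 miRNAs with at least 100 counts in some library. A listed 0 in another fluid was taken as 10 counts for this, which leaves miR-24-1-5p out. Other miRNAs, such as miR-140-5p and miR-214, could likewise be placed in no fluid, mostly because of urine, yet stay among the 166. The shares highest in serum or urine are thus lower bounds, for members and for the 166. Both members of the b pair had their highest CPM in urine, miR-27b-3p within counting error of bile, and so did 18.7% of the 166. A stricter limit, at least 100 counts and 4 times the next fluid, was passed in serum by 2 of 6 members, miR-23a and miR-24-3p, where 7.83% of the 166 passed. Neither passed with TMM or DESeq2 size factors. miR-24-3p, at 2.61 times plasma, also did not pass on the authors' RPM. miRNAs of blood and vessel cells were also high in serum. With a listed 0 taken as 0, the red cell list (miR-451, miR-144, miR-486) summed to 102146 CPM in serum and to between 5.25 and 5828 CPM in the other fluids. The leukocyte list (5 listed names) summed to 10231 CPM in serum and to 305 CPM in bile, with less in plasma and semen. The endothelial miR-126 arms summed to 4538 CPM in serum and 205 to 577 CPM elsewhere, mostly from miR-126-3p. Alone, miR-126-5p had 93.0 CPM in serum and 88.5 CPM in bile. In urine 10 counts are 377 CPM, so urine sums with names at 0 are lower bounds, and leukocyte names and miR-126-5p cannot be ordered there by these sums. The platelet list (miR-191 and miR-126-3p) summed to 10986 CPM in serum and 535 to 5395 CPM elsewhere. Of these markers none was at 0 in serum or plasma. In urine all 5 leukocyte names, miR-144, miR-486 and miR-126-5p were at 0, and in semen 4 of 5 leukocyte names, miR-451 and miR-144. Their part in the members' serum levels was not tested.

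The clearest contrast lay in the make-up of the members' own counts. In serum miR-24-3p took 38.2% of them (37.5 to 38.8), miR-23a 27.4% (26.8 to 28.0) and miR-27b-3p 20.3% (19.8 to 20.9). Going from serum to plasma, semen, urine and bile, miR-27b-3p took 42.2%, 56.0%, 62.5% and 75.6% (75.04 to 76.1). The a pair had 37.2% in serum and 21.2% in plasma, then 15.2% in semen, 12.3% in bile and 6.59% in urine. Its share was highest in serum and lowest in urine, where it rests on 33 counts (4.58 to 9.13).

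**Figure D2:**
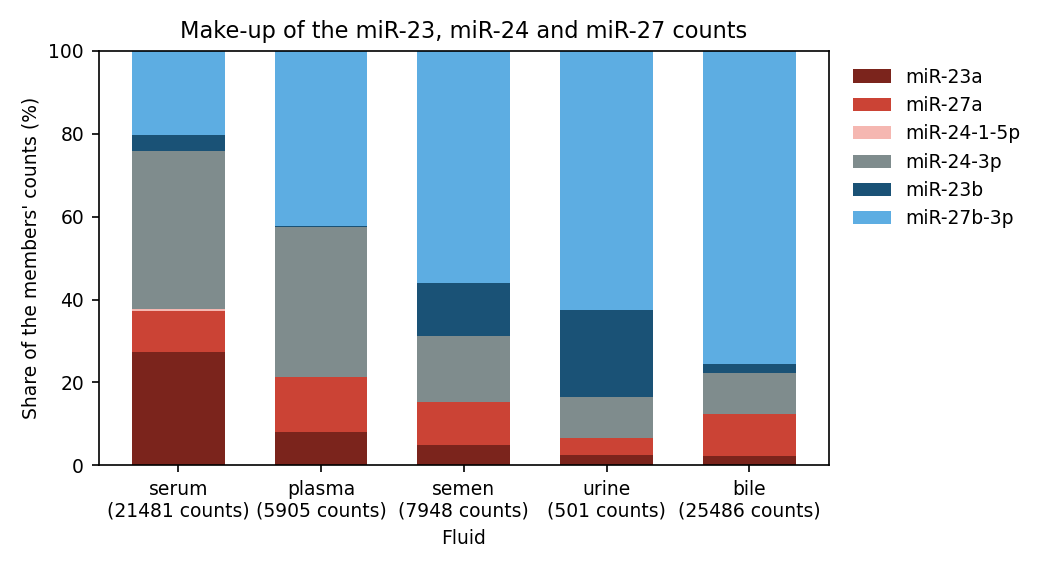
Stacked shares (%) of the members' counts in each fluid's library, with the number of counts under each bar; miR-24-1-5p is too small to see except in serum (0.535%). Reds (a cluster) and grey (miR-24-3p) fill most of the serum bar, and the light blue miR-27b-3p grows from 20.3% in serum to 75.6% in bile.

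Because the clusters are paralogs, the balance between their products was compared inside each library. Serum counts of the a pair were 1.54 times those of the b pair (1.49 to 1.60). The other fluids followed with 0.4996 times in plasma (0.466 to 0.535), 0.221 times in semen (0.207 to 0.235), 0.159 times in bile (0.153 to 0.165) and 0.0788 times in urine (0.0535 to 0.112). Serum was the one library in which the a pair outnumbered the b pair, and each step in this order exceeded counting error, the last and least certain being bile over urine (odds ratio 2.02, 1.41 to 2.98).

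The same comparison for miR-23 alone gave a wider spread. miR-23a was 27.7 times miR-23b in plasma (17.1 to 48.0) and 7.30 times in serum (6.78 to 7.87). In bile the paralogs were level (1.03, 0.911 to 1.16). In semen and urine miR-23b was the more abundant, 2.64 times (2.35 to 2.98) and 8.83 times miR-23a (4.85 to 17.6). The ratio thus spanned 245-fold from plasma to urine, and these ends rest on 17 miR-23b counts and 12 miR-23a counts. For miR-27 the b form was ahead in all 5 libraries, by 2.08 times in serum (1.98 to 2.19) and 3.18 times in plasma (2.94 to 3.45), and by 5.42 times in semen (5.03 to 5.85), 7.43 times in bile (7.13 to 7.74) and 14.9 times in urine (9.58 to 24.4). This ratio spanned 7.16-fold. Both paralog ratios had blood fluids at the a end and urine at the b end, while serum and plasma, and semen and bile, changed places. No source used here says how reads that fit both paralogs were counted, so the split of each paralog pair is uncertain. Sums of paralogs do not move with that split, provided each such read was counted under a single name, which is not known. The sum of miR-23a and miR-23b was 1.42% of serum counts (1.38 to 1.45), 0.445% in urine (0.368 to 0.533), 0.0654% in bile, 0.0614% in semen and 0.0423% in plasma. The sum of the miR-27 forms was 1.37% in serum, 1.31% in bile, 1.26% in urine (1.13 to 1.40), 0.284% in plasma and 0.231% in semen.

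Members from one transcript did not keep a constant ratio. miR-23a was 2.81 times miR-27a in serum (2.67 to 2.95), but 0.602 times in plasma (0.535 to 0.675), 0.571 in urine (0.256 to 1.22), 0.469 in semen (0.414 to 0.530) and 0.214 in bile (0.195 to 0.235). Serum stood apart at the top and bile at the bottom, while neither plasma and urine nor urine and semen differed beyond counting error. The ratio of miR-23b to miR-27b-3p was 0.339 in urine (0.269 to 0.423), 0.229 in semen (0.213 to 0.245) and 0.185 in serum (0.171 to 0.199). It was far lower in bile, 0.0280 (0.0257 to 0.0305), and in plasma, 0.00682 (0.00397 to 0.0109), where miR-27b-3p was 147 times miR-23b (91.4 to 252). Over the 5 fluids the first ratio spanned 13.1-fold and the second 49.7-fold. As background, the ratios of all 2211 pairs among the 67 miRNAs with 10 or more counts in every library spanned a median of 76.5-fold. Other miRNAs made from shared transcripts varied too. The ratio of miR-192 to miR-194a spanned 51.9-fold over 5 fluids and that of miR-99a to let-7c 2.90-fold. Over the 4 fluids that listed both, the ratio spanned 2.45-fold for miR-191 to miR-425-5p, 2.56-fold for miR-17-5p to miR-20a, 2.97-fold for miR-181a to miR-181b and 12.9-fold for miR-182 to miR-183. Over 3 fluids miR-143-3p to miR-145-5p spanned 22.8-fold and miR-451 to miR-144 12.9-fold, and over 2 fluids miR-199a-3p to miR-214 spanned 14.5-fold.

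Since miR-24-3p can come from either cluster, it was also set against each pair, a comparison chosen after the values were seen. Against the a pair its ratio was 1.71 times in plasma (1.59 to 1.83), 1.48 in urine (0.936 to 2.38), 1.05 in semen (0.968 to 1.14) and 1.03 in serum (0.996 to 1.06), with bile lowest at 0.806 (0.765 to 0.850). Against the b pair it went from 1.59 times in serum (1.53 to 1.64) and 0.853 in plasma to 0.231 in semen, 0.128 in bile and 0.117 in urine (0.0851 to 0.157). The first ratio spanned 2.12-fold and the second 13.6-fold. Of single members, miR-24-3p varied least with miR-23a, 3.28-fold, and with miR-27a, 3.995-fold, against 14.3-fold with miR-27b-3p and 272-fold with miR-23b. Among the 2211 background pairs, 40 had a narrower span than miR-24-3p with miR-23a and 66 than with miR-27a. Those pairs are of single miRNAs, so no such rank is given for the summed pairs.

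**Figure D3:**
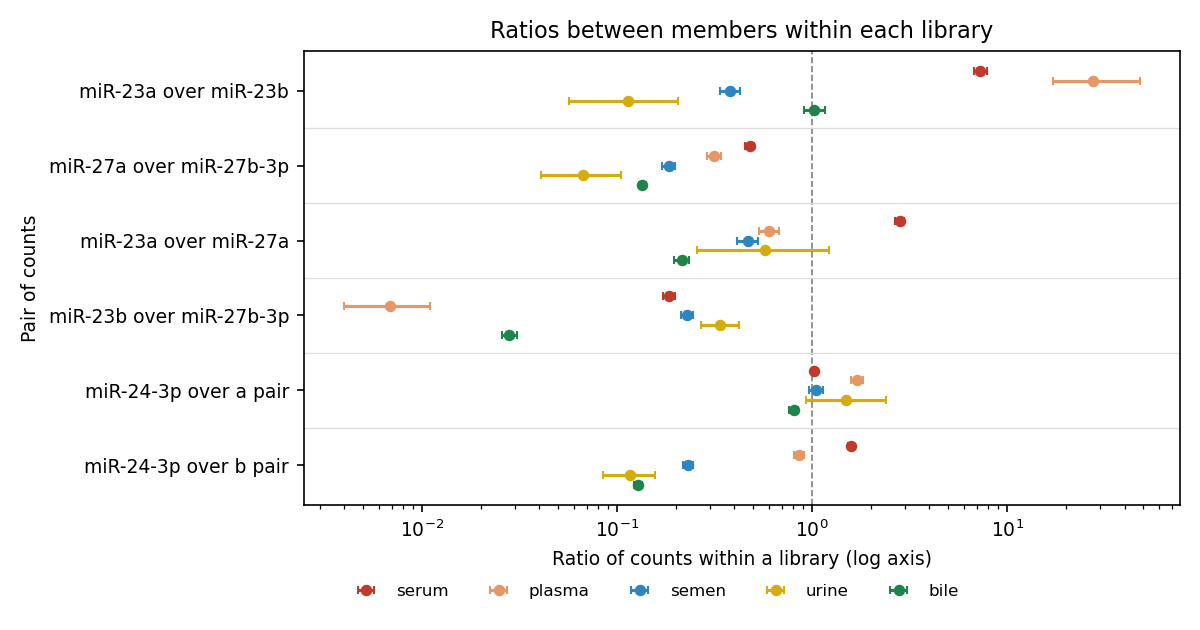
Ratio of counts between members within each library (log axis) with exact 95% intervals, where the a pair is miR-23a with miR-27a and the b pair miR-23b with miR-27b-3p; the dashed line marks equal counts. The miR-23a to miR-23b points run from 0.113 in urine to 27.7 in plasma, while miR-24-3p over the a pair stays between 0.806 and 1.71.

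Serum and plasma are the same blood compartment with and without clotting. On CPM, 6 of 6 members were at least 2-fold higher in serum, but so were 73.1% of the 119 miRNAs with at least 100 counts in either library. miR-23b (807 counts in serum, 17 in plasma) and miR-24-1-5p (115 and 0) reached 100 counts through serum alone. That filter favours a serum call for both, and on CPM it settles it. The members ran from miR-23b, 116 times higher in serum (71.8 to 199.7), through miR-23a at 30.5 times (27.8 to 33.6), miR-24-1-5p at the bound given above and miR-24-3p, to miR-27a at 6.53 times (6.01 to 7.10) and miR-27b-3p at 4.27 times. With TMM 3 members were at least 2-fold higher in serum, miR-23a, miR-23b and miR-24-1-5p, against 28.6% of the 119. miR-27b-3p was then at least 2-fold higher in plasma, as were 43.7% of the 119. On the authors' RPM 4 members passed in serum, against 48.7%.

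The median serum to plasma ratio of the 119 miRNAs moved with the scaling, from 6.77 on CPM to 1.89 on the authors' RPM, 0.686 with TMM and 0.665 with DESeq2 size factors. Relative to that median, which takes the scaling out, miR-23b was 17.1 times, miR-23a 4.503 times and miR-24-1-5p at least 4.14 times towards serum. miR-24-3p (1.38 times) and miR-27a (0.964 times) were near the median, and miR-27b-3p (0.631 times) lay towards plasma. Both miR-23 forms were thus on the serum side, and neither miR-27 form was. In plasma miR-378 alone took 41.4% of the counts, and with each library's most abundant miRNA left out of its total the median ratio was 4.85.

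**Figure D4:**
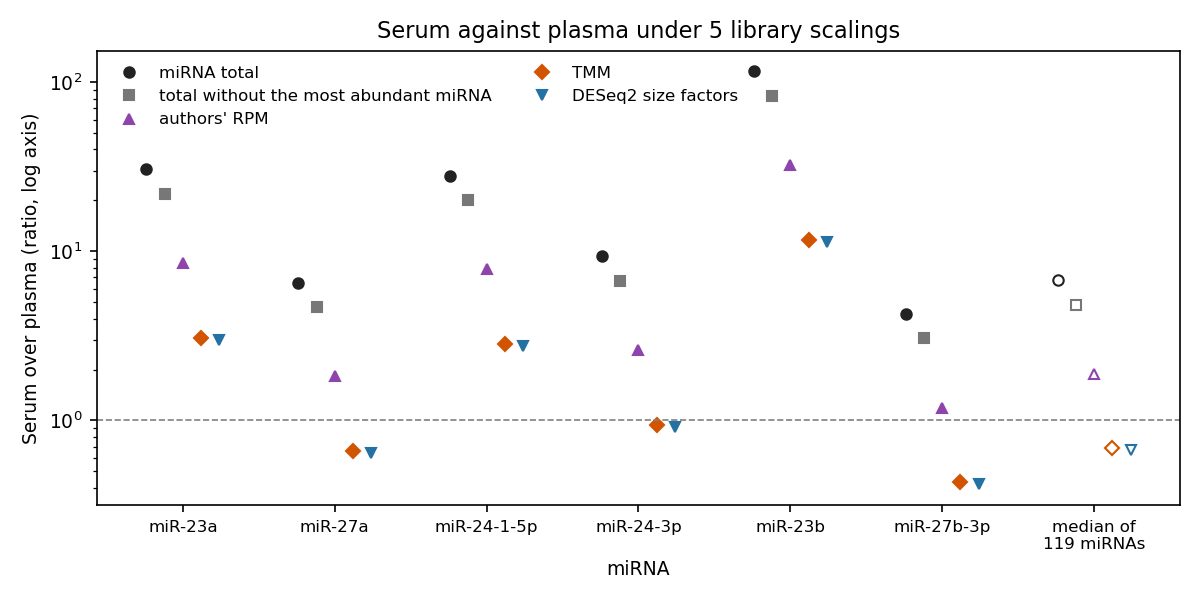
Serum over plasma ratio (log axis) of each member under 5 library scalings, with open symbols for the median of the 119 miRNAs with at least 100 counts in either library and a dashed line at equal levels. Filled points of miR-23b and miR-23a stay above 1 under each scaling (miR-23b lowest at 11.4), while miR-27a, miR-24-3p and miR-27b-3p fall below 1 with TMM and DESeq2 size factors.

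In blood work the ratio of miR-451 to miR-23a serves as a gauge of red cell lysis, since miR-451 is loaded into red cells and miR-23a is taken as steady. Here miR-451 was 6.81 times miR-23a in serum (6.63 to 7.0), 10.1 times in plasma (9.22 to 11.2), 10.3 times in urine (5.71 to 20.5) and 12.4 times in bile (11.4 to 13.6). In semen miR-451 was listed at 0 and the ratio was at most 0.0234. Serum thus had a lower ratio than plasma although its miR-451 level was higher, and miR-23a itself differed between these libraries by the amounts above. With other members as the reference the order of serum and plasma turned: miR-451 was 19.1 times miR-27a in serum and 6.10 times in plasma, and 4.89 and 2.23 times miR-24-3p.

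The miRNAs with the most similar spread over fluids were found by overlap, the percent of CPM shared between fluid profiles that each sum to 100%, among 160 other miRNAs with at least 100 counts in some library. miR-23a was closest to miR-140-3p (96.3%), miR-451 (95.4%) and miR-2320-5p (94.1%), against a median of 28.9% over the 160. miR-24-3p was closest to the endothelial miR-126-3p (94.0%), miR-17-5p (90.1%) and miR-92a (89.2%), and miR-27a to miR-20a (94.95%), miR-103 (91.4%) and miR-7134-3p (86.2%), with medians of 39.1% and 49.9%. No neighbours are given for miR-24-1-5p, whose profile is set by values listed at 0 in 3 fluids. Overlaps took a listed 0 as 0. Of the neighbours above, miR-2320-5p and miR-17-5p were at 0 in urine, where 10 counts are 377 CPM. Their overlaps and places are therefore uncertain. For miR-451 the listed 0 was in semen, where 10 counts are 4.38 CPM. The b cluster had other neighbours: miR-30e-5p (86.0%), miR-30e-3p (83.5%) and miR-30b-5p (83.4%) for miR-23b, and let-7f (86.2%), miR-152 (86.1%) and let-7g (81.0%) for miR-27b-3p, with medians of 35.6% and 45.2%. Between members, miR-24-3p overlapped miR-23a by 84.9% and miR-27a by 81.7%, but miR-27b-3p by 48.0% and miR-23b by 41.9%. The paralogs overlapped by 33.4% for miR-23 and 65.6% for miR-27. Each profile rests on 5 libraries, and of the 18 nearest neighbours, those of miR-24-1-5p included, 7 were among the nearest 3 again with TMM. Of those named here, miR-451 and miR-2320-5p stayed for miR-23a, miR-30e-5p and miR-30b-5p for miR-23b, and miR-152 for miR-27b-3p. None of those named for miR-24-3p or miR-27a stayed, nor did miR-140-3p for miR-23a. Without the urine library none of those named for miR-23b stayed. In that setting miR-451 and miR-2320-5p stayed for miR-23a, and miR-126-3p and miR-17-5p for miR-24-3p. So did miR-20a for miR-27a and miR-152 for miR-27b-3p.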

How the data were processed

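Small RNA of 14 to 40 nt was sequenced from exosomes of 5 fluids, per the labels' protocols, with 1 library per fluid. The submitters' processing notes name bcl2fastq 2.17 and the build Sscrofa10.2. No source used here gives the aligner, miRNA annotation or counting rule. The authors deposited read counts per mature miRNA name, beside a normalized column. Those deposited values behave as RPM: count divided by RPM gave 1 constant per library within 0.1%, equal to totals of 7207788 to 10801967 reads.

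From the counts, CPM, shares (Clopper-Pearson intervals), ratios between libraries (conditional binomial intervals) and odds ratios (conditional exact intervals) were computed with scipy 1.17.1, and scalings with edgeR 4.0.16 (TMM) and DESeq2 1.42.0 (size factors). No test across libraries was possible. Interval and size rules were tested on simulated data. A value listed at 0 was taken as 10 counts in ratios between libraries and as 9 in ratios within a library. In marker sums and overlaps it was taken as 0. Groups came from the labels' tissue field. Gene order came from a Sscrofa11.1 table, without coordinates. Mature sequences and seed families were not analysed here, and neither was miR-223. The text names the members, fixed markers and clustered pairs, and the 3 most similar miRNAs per member (not printed for miR-24-1-5p). Members, lists and rules were chosen with earlier results of these data known. Alternatives were other scalings, minimums, limits and floors, thinning to 26522 counts (100 draws) and leaving out urine. Added after seeing the data were the floor in naming the highest fluid, miR-24-3p against each pair, the bound of 9 reads, the background of all pairs and other references for miR-451.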

Additional observations from a re-analysis of the deposited data

How the results depend on the processing

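The library scaling decided which fluid led in several results. Summed members, serum over the next fluid, went from 2.40 to 0.898 (TMM), 0.871 (DESeq2 size factors), 0.840 (authors' RPM) and 2.98 (without the urine library). Members past 4 times the next fluid went from 2 to 0 with TMM and 0 with DESeq2 size factors, and to 4 at a limit of 2 times. On the authors' RPM 3 passed, miR-23a and miR-24-1-5p in serum and miR-27b-3p in bile. The share of all miRNAs that passed was computed for serum on CPM at 4 times alone, 7.83% of the 166. The other counts therefore cannot be set against miRNAs at large. Members at least 2-fold higher in serum than plasma went from 6 to 3 with TMM and with DESeq2 size factors. Of the 119 miRNAs, 73.1% passed on CPM and 28.6% with TMM, and no share was computed with DESeq2 size factors. Of the 18 most similar miRNAs 7 remained with TMM and 8 without urine.

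With TMM and DESeq2 size factors, serum over plasma was 0.661 and 0.641 for miR-27a, 0.946 and 0.917 for miR-24-3p and 0.432 and 0.419 for miR-27b-3p. For miR-27a and miR-24-3p these are also serum over the next fluid, and on RPM miR-27a had 0.806. For miR-27b-3p, urine over the next fluid was 0.474 with TMM, 0.661 with DESeq2 size factors, 0.894 with totals without the most abundant miRNA and 0.0159 on RPM. For miR-23b it was 0.104 on RPM. For miR-24-1-5p, serum over the next fluid was 0.645 against 10 counts in urine, 7.82 on RPM, 2.15 at a floor of 3 counts and 28.0 without urine.

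Balance of the clusters does not move with scaling but does with the members used. With miR-23 alone, a over b was 27.7 (plasma), 7.30 (serum), 1.03 (bile), 0.378 (semen) and 0.113 (urine). With miR-27 alone it was 0.480 (serum), 0.314 (plasma), 0.184 (semen) and 0.135 (bile). Thinning gave 0.206 in semen. In all, 19 of 40 alternative values of the summary results and 22 of 64 for single members kept their direction and stayed within counting error or, for counts of miRNAs, within 1.5 times. Leaving out urine was not run for serum against plasma, which it does not enter. No paired analysis was possible because each fluid has 1 library. The few miRNA counts of urine (26522) limit miR-24-1-5p (listed at 0, which allows a level above that of serum), miR-23a (12 counts) and miR-27a (21).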
